A study of Hordeum vulgare with 18 samples.

Results

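The WRKY transcription factors of highland barley were followed through leaf and root at 3 rates of organic nitrogen. A locus was taken as a member if it had a count in any library and carried WRKY in the table's transcription factor family or in the protein name of its description. Of 68630 loci in the table, 32529 had a count and 95 of these were members, while 10 more loci met the annotation rule without a count. The description and the family column both named 88 members, the family column alone named 1 and the description alone named 6. A WRKY domain was annotated in 89 members, and the other 6 were kept because the rule held for them.

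WRKY proteins form one of the large transcription factor families of plants. They share a DNA-binding domain with the conserved WRKY residues and a zinc finger, and bind W-box elements in the promoters of their targets, among them other WRKY genes. The family falls into structural groups by the number of domains and the type of zinc finger, and its members act in immunity, leaf senescence, phosphate supply, drought and germination, some as activators and some as repressors. VQ motif proteins bind WRKY proteins and MAP kinases phosphorylate some of them. Names here are those of the closest annotated protein of another plant, so a role known from rice or Arabidopsis is background and was not measured in these plants.

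Plants grew in pots of 3.5 kg soil and were harvested at flowering. At 0%, the control, a pot received urea (357 mg), superphosphate (1545 mg) and potassium sulfate (140 mg) but no organic fertilizer. A pot at 40% received organic fertilizer (1117 mg) with less urea (215 mg), superphosphate (1443 mg) and potassium sulfate (122 mg). A pot at 100% received organic fertilizer (2793 mg), superphosphate (1289 mg) and potassium sulfate (96 mg), and no urea. Total nitrogen, phosphorus and potassium were held equal, so every group, controls included, was fertilized. The 18 libraries are 3 of leaf and 3 of root at each rate. The titles name leaf and root, whereas the design text names above-ground and underground parts. The cultivar, the age in days and the hour of harvest are not given in the sources used here.

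Leaf libraries held 16.49 to 18.98 M counts each, root libraries 12.97 to 16.86 M. Photosynthesis marker loci summed to 59228 to 139700 CPM (a count divided by its library's total, scaled to 1000000) in leaf and 7.34 to 13.6 CPM in root, so the organs matched their labels. Of 12 root marker loci, 9 had no count in any leaf library. The other 3, a nitrate transporter and Casparian strip proteins among them, summed to 80.04 to 129 CPM in 100% leaves, 7.48 to 14.5 CPM in 40% leaves and 5.50 to 12.7 CPM in control leaves. Their control means were 4.47, 2.66 and 1.04 CPM in leaf and 2.27, 0 and 1.61 CPM in root. These 3 thus did not mark root here. Among the control leaves leaf 2 stood apart, with 15139, 749 and 14013 CPM of the senescence-specific protease SAG39 D1007_05290 in control leaves 1, 2 and 3. SAG39 had 276, 357 and 316 CPM in 40% leaves and 5137.5, 1217 and 1429 CPM in 100% leaves. Over all leaf libraries, control leaves 1 and 3 were thus the highest for this locus. Within the family, 100% leaf 3 stood apart, with summed WRKY levels of 2067, 1809 and 838 CPM in 100% leaves 1, 2 and 3. Results that move without these libraries are given with and without them.

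By the textbook classification of the annotated names, 12 members belonged to group I, 6 to IIa, 5 to IIb, 21 to IIc, 12 to IId, 11 to IIe and 27 to III, and 1 had no name. The zinc cluster domain that marks group IId was annotated in 9 members, all of them in IId. The 95 members carried 43 distinct names, so several loci share a name, and reads may be split between close copies. There were 7 clusters of members less than 100 kb apart, with 17 members in all. The largest held 4 loci named WRKY19 within 73.9 kb of scaffold SDOW01000143.1. Loci named rice WRKY28 (D1007_45894, 1254892 to 1257000) and rice WRKY71 (D1007_45895, 1297995 to 1299719) lay 44.8 kb from end to end on SDOW01000661.1. Both loci of a WRKY50 pair, one assembled from the reads (1105572 to 1107166, called read-assembled WRKY50 here) and D1007_53924 (1169025 to 1170798), lay within 65.2 kb of SDOW01000932.1. A cluster on SDOW01000422.1 held WRKY11 D1007_35542, WRKY1 D1007_35544 and WRKY54 D1007_35545. The assembly that these scaffold positions belong to is not named in the sources used here.

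The family was mainly expressed in roots. Summed over the 95 members, control leaves held 1512, 1157 and 1701 CPM and control roots held 7532, 6520 and 6921 CPM, so the organs did not overlap. Of the members, 12 had no count in any leaf library and 3 had none in any root library. In bulk tissue, fewer cells of a type and less RNA per cell cannot be told apart. In a fit of all 18 libraries by edgeR's quasi-likelihood test with Benjamini-Hochberg adjustment over all genes, 81 members had enough counts to be tested, and 54 of them were lower and 7 higher in control leaf than in control root. Of all genes tested, 56.2% were called in this comparison, 30.3% lower and 25.9% higher in leaf, against 75.3% of the tested members. Many members passed the filter only through their root level and so had to differ. Among the 54 members with enough counts within each organ, 32 were lower and 5 higher in leaf. The median log2 difference over the 81 was -3.34, or -3.12 with members at no count set to their bounds, against -0.05 over all genes.

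Named by their size of difference, the members furthest below the root level had no count at all in control leaves. WRKY19 D1007_51518 had 0 CPM in each control leaf and 75.3, 75.7 and 92.6 CPM in control roots, at least 497-fold lower in leaf against a floor of 3 counts per library. WRKY54 D1007_35545, whose Arabidopsis namesake represses senescence, had 0 CPM in control leaves and 41.5, 32 and 38.7 CPM in control roots, at least 229-fold lower. The same comparison gave at least 110-fold for WRKY1 D1007_35544 and at least 63.6-fold for WRKY46 D1007_51522, a name known in Arabidopsis from defence and drought. In none of these 4 did the organs overlap. Floors and intervals of counts cover counting error only.

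Members above the root level in leaf were few. SUSIBA2 D1007_51649, known in barley as a sugar-responsive activator of starch synthesis genes, had 238, 206 and 213 CPM in control leaves and 70.5, 70.2 and 63.2 CPM in control roots. Its log2 difference of leaf over root was 1.92 ± 0.15 (SE, adjusted p = 4.02e-08). WRKY69 D1007_03349 had 574, 358 and 299 CPM in control leaves and 123, 112 and 140.3 CPM in control roots, a log2 difference of 1.94 ± 0.40 (SE, adjusted p = 0.000689). Control leaves of both lay above all control roots. WRKY61 D1007_50307 was also higher in leaf, by 2.32 ± 0.66 (SE, adjusted p = 0.00682). The locus named after tomato WRKY70, D1007_50670, held 73.2, 8.87 and 499 CPM in control leaves and 9.44, 16.3 and 33 CPM in control roots. Its call (log2 difference 3.46 ± 0.95 (SE, adjusted p = 0.00564)) rested on control leaf 3 and was lost without it, at an adjusted p of 0.147.

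**Figure D1:**
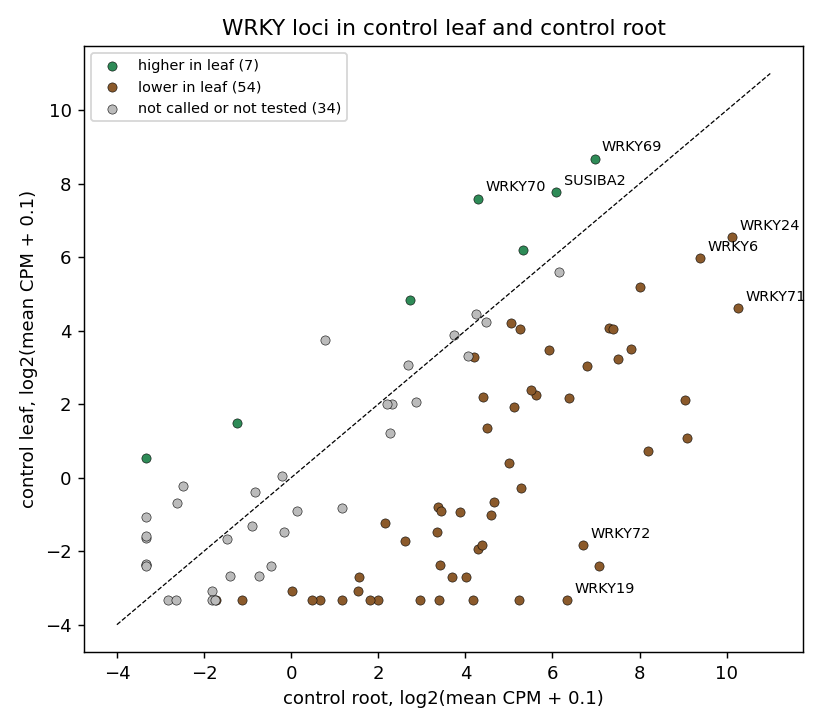
Mean level of each of the 95 WRKY loci in control root (x axis) and control leaf (y axis), both as log2 of CPM plus 0.1, from 3 libraries each. Points on the dashed line have equal levels, and 54 loci were called lower in leaf, 7 higher, and 34 were not called or not tested.

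Levels between members were compared per kilobase of the listed gene length, as the mean over the 9 libraries of an organ. In root the order was WRKY71 D1007_57881 at 679 CPM per kb, WRKY24 D1007_43202 at 449.7, WRKY19 D1007_25648 at 262, WRKY71 D1007_45895 at 260.2 and WRKY6 D1007_20095 at 253 CPM per kb. The last 3 overlapped each other over the 9 libraries, from 123 to 375 CPM per kb for WRKY19, 162 to 390 for WRKY71 D1007_45895 and 190 to 327 for WRKY6. The first locus ranged from 537 to 774 CPM per kb and met the range of WRKY24 D1007_43202 (318 to 539 CPM per kb). In rice, WRKY71 and WRKY24 repress gibberellin signalling in the aleurone, and in Arabidopsis WRKY6 acts in senescence and phosphate transport. In leaf, WRKY69 D1007_03349 led with 214 CPM per kb. It was followed by SUSIBA2 D1007_51649 with 64.1, WRKY70 D1007_50670 with 56.6, WRKY24 D1007_43202 with 53.3 and WRKY71 D1007_57881 with 45 CPM per kb. The ranges of these 5 over the leaf libraries overlapped. The place of WRKY70 rested on control leaf 3, without which it had 18.7 CPM per kb and ranked 11, and WRKY71 D1007_57881 had 23.3 CPM per kb without 100% leaf 1.

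In leaves at 100% organic nitrogen, the WRKY loci that passed the test against control leaves were mainly higher. In the fit of the 9 leaf libraries, 18 of 56 tested members rose and 3 fell. In that comparison 22.9% of all tested genes were called, 13% higher and 9.98% lower, against 37.5% of the members. The median log2 change was 0.94 over the members and -0.07 over all genes. Scaling by library size alone moved the median of all genes to -0.33 and that of the members to 0.70, and gave 12 higher and 4 lower. Of the 39 members not tested, 12 had no leaf count and none passed 3.89 CPM in any library. Members that passed the filter only through 1 rate had to differ between rates. Of 36 tested members with at least 1 CPM in every control leaf, 12 rose and 2 fell, and of the other 20, 6 rose and 1 fell. Summed over the family the groups overlapped, at 2067, 1809 and 838 CPM in 100% leaves and 1512, 1157 and 1701 CPM in control leaves. In 12 of the 18 that rose, every 100% leaf lay above every control leaf. The test that picked them used these same libraries, so this separation adds no support. Its share over all genes was not counted. The lowest of the 100% leaves was 100% leaf 3 in 14 of the 18. The count of calls was 3 without control leaf 3, 5 without control leaf 1, 12 without control leaf 2 (8 higher, 4 lower) and 10 without 100% leaf 2, and 18 without 100% leaf 3. Of all genes, 2388 of 20695, 2756 of 20740, 3667 of 20727, 3623 of 20647 and 4353 of 20767 were called in these fits, in the same order. Without control leaf 3 or control leaf 1 the share of members called was thus not above that of all genes.

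The rise of smallest adjusted p was at the WRKY50 pair of group IIc. In Arabidopsis WRKY50 takes part in salicylate-dependent repression of jasmonate signalling. The read-assembled WRKY50 had 37.3, 12.8 and 13.3 CPM in 100% leaves and 0.373, 0.801 and 0.114 CPM in control leaves. Its neighbour D1007_53924 had 115, 31.7 and 41.9 CPM in 100% leaves and 1.81, 6.68 and 2.55 CPM in control leaves. Neither locus overlapped between these groups, and the log2 changes were 5.84 ± 0.91 (SE, adjusted p = 0.00266) and 4.35 ± 0.74 (SE, adjusted p = 0.00387). The pair kept its calls under every alternative, including each left-out library. In 40% leaves read-assembled WRKY50 had 9.04, 7.06 and 1.43 CPM and D1007_53924 had 28.9, 35.6 and 9.8 CPM, each above all control leaves.

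Group IIa gave 3 of its 4 tested members as higher, the largest share of any group, with a median log2 change of 3.93. Rice proteins of this group are known as negative regulators of immunity or of gibberellin signalling. WRKY71 D1007_45895 had 84.7, 33.1 and 9.82 CPM in 100% leaves and 3.2, 1.5 and 1.31 CPM in control leaves, a log2 change of 4.66 ± 1.00 (SE, adjusted p = 0.0106). Its neighbour WRKY28 D1007_45894, whose rice namesake dampens the response to rice blast, had 6.13, 26.9 and 0.621 CPM in 100% leaves and 0.0533, 0.16 and 0.0568 CPM in control leaves, a change of 7.06 ± 1.52 (SE, adjusted p = 0.0108). The groups did not overlap at either locus. WRKY71 D1007_57881 had 378, 148 and 43 CPM in 100% leaves and 13.8, 43.4 and 16.5 CPM in control leaves, a change of 3.20 ± 0.75 (SE, adjusted p = 0.0154). There the lowest 100% leaf fell just under the highest control leaf. The remaining member, WRKY76 D1007_03132, known in rice as a repressor of blast resistance and named here after its value was seen, fell to 0, 0.394 and 0 CPM in 100% leaves against 10.5, 0.321 and 29.2 CPM in control leaves. Its log2 change was -6.33 ± 1.83 (SE, adjusted p = 0.0338). It was low in control leaf 2, as SAG39 was, and also in 40% leaves, at 0.546, 1.11 and 0 CPM. The part of single control leaves in the spread was not tested.

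Members of the other groups rose by a wide range of sizes. WRKY51 D1007_52716 of group IId had 43.1, 66.3 and 20.6 CPM in 100% leaves and 14, 16.7 and 18.4 CPM in control leaves, without overlap, a log2 change of 1.64 ± 0.38 (SE, adjusted p = 0.0146). In rice, WRKY51 acts together with WRKY71 on gibberellin response. Read-assembled WRKY57 of IIc, linked in Arabidopsis to drought tolerance and delayed senescence, had 33.5, 28.6 and 5.64 CPM in 100% leaves and 4.53, 6.25 and 2.38 CPM in control leaves. Its change was 2.60 ± 0.62 (SE, adjusted p = 0.0159), and 100% leaf 3 lay within the control range. WRKY41 D1007_55553 of group III, a defence and seed dormancy regulator in Arabidopsis, had 32.1, 119.8 and 14.4 CPM in 100% leaves and 9.16, 10.4 and 8.17 CPM in control leaves, without overlap, a change of 2.80 ± 0.75 (SE, adjusted p = 0.0251). WRKY24 D1007_43202 had 221, 286 and 109 CPM in 100% leaves and 113, 80 and 89.2 CPM in control leaves. Its change was 1.37 ± 0.39 (SE, adjusted p = 0.0313), and 100% leaf 3 lay within the control range. WRKY50 D1007_38093, a further IIc locus, was called higher on 161 counts in 100% leaves and 3 in control leaves, a ratio of 56.4 (95% counting interval 18.96 to 276). Apart from the WRKY50 pair, the named calls of this comparison (10 loci) were each lost without at least 1 of control leaves 1, 2 and 3 or of 100% leaves 1 and 2, at adjusted p up to 0.183. The other fallers, named after their values were seen, were WRKY11 D1007_53212 with a log2 change of -1.39 ± 0.39 (SE, adjusted p = 0.0314) and WRKY4 D1007_07257 with -0.88 ± 0.27 (SE, adjusted p = 0.04). No member fell without control leaf 1, control leaf 3 or 100% leaf 3.

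**Figure D2:**
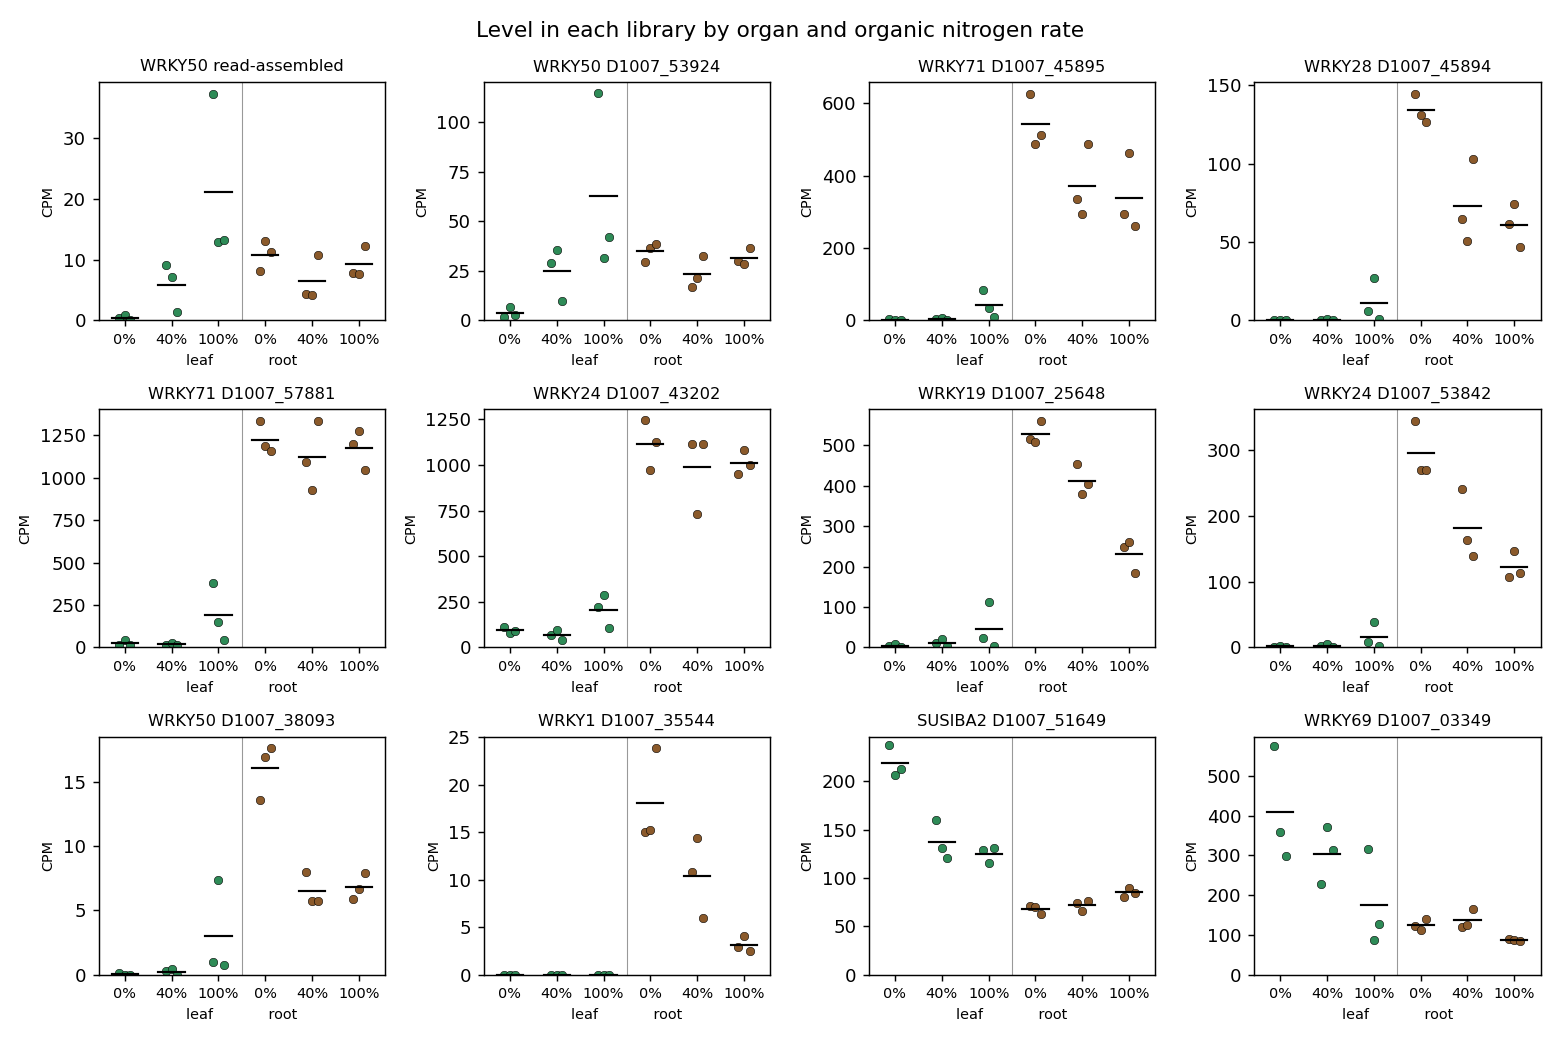
Level in CPM (y axis, linear from 0) of 12 WRKY loci in each of the 18 libraries, by organ and rate of organic nitrogen (x axis); points are libraries and lines are means of 3. The WRKY50, WRKY71 and WRKY28 loci are low in control leaves and higher in 100% leaves. The root means of WRKY28, WRKY19 D1007_25648, WRKY24 D1007_53842 and WRKY1 are lowest at 100%, although 40% and 100% roots of WRKY28 overlap.

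At 40% organic nitrogen no leaf member passed the test, and 0.00998% of all tested genes did, 0.00499% higher and 0.00499% lower. At an unadjusted p under 0.05 there were 12 of 56 members and 3635 of 20032 genes. DESeq2 called 5 members higher and 3 lower, and of the 20032 genes 747 higher and 838 lower. Without control leaf 2, edgeR called 2 members higher and 2 lower, and of 20727 genes 490 higher and 545 lower. The WRKY50 pair had log2 changes of 3.72 ± 0.85 (SE, adjusted p = 0.0927) for read-assembled WRKY50 and 2.75 ± 0.70 (SE, adjusted p = 0.106) for D1007_53924.

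Between 100% and 40% leaves, 5 members rose and none fell, 8.93% of those tested, against 18.6% of all genes (11.1% higher, 7.52% lower), and scaling by library size alone gave 5 higher and 1 lower. WRKY71 D1007_57881 had 378, 148 and 43 CPM in 100% leaves and 16.4, 26.2 and 14 CPM in 40% leaves, without overlap, a log2 change of 3.57 ± 0.77 (SE, adjusted p = 0.0129). WRKY24 D1007_43202 changed by 1.79 ± 0.39 (SE, adjusted p = 0.0137) and WRKY51 D1007_52716 by 1.71 ± 0.38 (SE, adjusted p = 0.0151). The neighbours WRKY71 D1007_45895 and WRKY28 D1007_45894 changed by 3.81 ± 0.95 (SE, adjusted p = 0.0229) and 5.40 ± 1.36 (SE, adjusted p = 0.0237). At 40% none of these 5 passed against controls, and D1007_57881 held 16.4, 26.2 and 14 CPM in 40% leaves and 13.8, 43.4 and 16.5 CPM in control leaves. The count was 0 without 40% leaf 1, 3 without 40% leaf 2, 1 without 40% leaf 3 and 11 without 100% leaf 3. All genes called in these fits were 1501, 2048, 1934 and 3489, in the same order.

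In roots the direction was the opposite. At 100% organic nitrogen 14 of 78 tested members fell and none rose against control roots. Of all genes tested, 10.2% were called, 5.54% lower and 4.69% higher, against 17.9% of the members. The median log2 change was -0.32 over the members and -0.00473 over all genes. Summed WRKY levels were 5269, 5644 and 5004 CPM in 100% roots and 7532, 6520 and 6921 CPM in control roots, without overlap. In each of the 14, every 100% root lay below every control root. The test that picked them used these same libraries, so this separation adds no support. Its share over all genes was not counted. The count of calls was 6 without control root 1, 5 without control root 2, 6 without control root 3, 9 without 100% root 1 and 5 without 100% root 3. All genes called in these fits were 1129, 571, 909, 1074 and 788, in the same order. In 1 fit with the leaf libraries 1 member and 501 of 24046 genes were called. There the biological coefficient of variation was 38.7% against 27.7% in the root libraries alone.

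The falls of smallest adjusted p included loci of low level. WRKY1 D1007_35544 had 2.91, 4.04 and 2.48 CPM in 100% roots and 15, 15.2 and 23.9 CPM in control roots, a log2 change of -2.58 ± 0.38 (SE, adjusted p = 0.00544). This call held under every alternative. WRKY51 D1007_00267, which in Arabidopsis works with WRKY50 in repressing jasmonate signalling, had 0.823, 1.58 and 1.18 CPM in 100% roots and 6.73, 8.36 and 8.03 CPM in control roots, a change of -2.74 ± 0.41 (SE, adjusted p = 0.00561). A read-assembled locus with a family entry but no protein name had 0.253, 0.0685 and 0.124 CPM in 100% roots and 1.64, 1.3 and 0.966 CPM in control roots, a change of -3.08 ± 0.59 (SE, adjusted p = 0.0144).

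Abundant loci fell too. WRKY19 D1007_25648 had 249, 261 and 183 CPM in 100% roots and 516, 509 and 561 CPM in control roots, a log2 change of -1.24 ± 0.19 (SE, adjusted p = 0.00563). WRKY24 D1007_53842 had 108, 146 and 114 CPM in 100% roots and 344, 270.2 and 270.0 CPM in control roots, a change of -1.31 ± 0.22 (SE, adjusted p = 0.00841). WRKY28 D1007_45894 had 61.8, 74.3 and 47 CPM in 100% roots and 145, 131 and 127 CPM in control roots, a change of -1.18 ± 0.26 (SE, adjusted p = 0.0222). In all 3 each 100% root lay below each control root. WRKY50 D1007_38093 changed by -1.29 ± 0.21 (SE, adjusted p = 0.00845). WRKY2 D1007_03382, which in Arabidopsis acts in pollen and the zygote, had the smallest of the named changes, -0.68 ± 0.14 (SE, adjusted p = 0.0178). WRKY51 D1007_00267, WRKY19 D1007_25648, WRKY24 D1007_53842 and WRKY50 D1007_38093 lost their calls only in the fit of all 18 libraries, at adjusted p of 0.135 to 0.499. WRKY2, WRKY28 and the unnamed locus lost theirs also without at least 1 of the control roots or of 100% roots 1 and 3.

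The 2 most abundant root members did not pass the test. WRKY71 D1007_57881 had 1200.2, 1275 and 1046 CPM in 100% roots and 1332, 1186 and 1157 CPM in control roots, a change of -0.10 ± 0.17 (SE, adjusted p = 0.739). WRKY24 D1007_43202 had 951, 1085 and 1001 CPM in 100% roots and 1244, 970.5 and 1125 CPM in control roots, a change of -0.19 ± 0.19 (SE, adjusted p = 0.561). WRKY6 D1007_20095 had 479, 442 and 434 CPM in 100% roots and 748, 613 and 663 CPM in control roots, without overlap, and its change of -0.62 ± 0.18 (SE, adjusted p = 0.0517) missed the threshold.

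At 40% in root 1 member fell, WRKY50 D1007_38093, and 0.306% of all genes were called (0.142% lower, 0.164% higher). It had 7.99, 5.76 and 5.71 CPM in 40% roots and 13.6, 16.9 and 17.6 CPM in control roots, a change of -1.33 ± 0.21 (SE, adjusted p = 0.0442). In 100% roots it had 5.89, 6.65 and 7.94 CPM, a range that overlapped that of 40% roots. The call was lost without any 1 of the control roots or of 40% roots 2 and 3, and without 40% root 1 there were 2 calls, 1 higher and 1 lower. At an unadjusted p under 0.05 there were 29 of 78 members and 3295 of 21895 genes. DESeq2 called 3 members higher and 7 lower, and of the 21895 genes 609 higher and 546 lower. Between 100% and 40% roots, 2 members fell against 4.59% of all genes called (2.19% lower, 2.4% higher). These were WRKY19 D1007_25648 (-0.86 ± 0.18 (SE, adjusted p = 0.0355)) and WRKY1 D1007_35544 (-1.76 ± 0.38 (SE, adjusted p = 0.0355)), and leaving out 40% root 2, 100% root 1 or 100% root 3 left none, and 40% root 1 left 1.

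**Figure D3:**
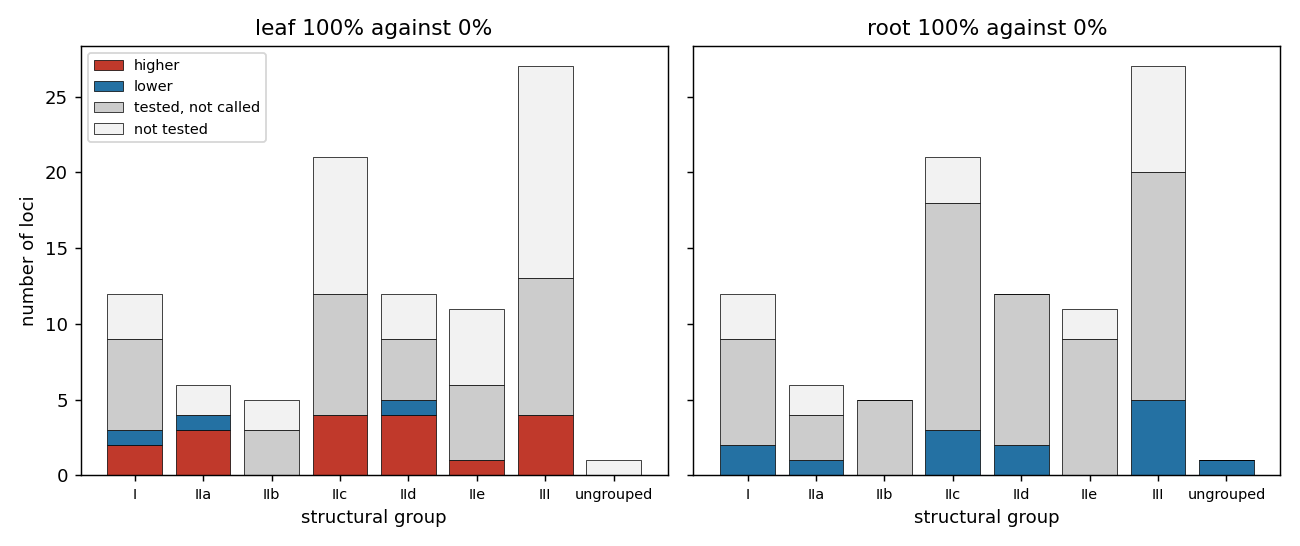
Number of WRKY loci (y axis) by structural group (x axis) that were higher, lower, tested but not called, or not tested at 100% against 0% organic nitrogen, in leaf (left) and root (right). Calls in leaf are mainly higher (18 against 3 lower), those in root are all lower (14), and groups IIb and, in root, IIe hold no call.

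By structural group, the leaf rises at 100% were spread over I (2 of 9 tested), IIa (3 of 4), IIc (4 of 12), IId (4 of 9), IIe (1 of 6) and III (4 of 13). The root falls at 100% were in I (2 of 9), IIa (1 of 4), IIc (3 of 18), IId (2 of 12) and III (5 of 20), with 1 more without a group. Group IIb, with WRKY6 and WRKY61 among its members, had no call at 100%, of 3 tested in leaf and 5 in root. Of all genes, 13% were called higher in leaf and 5.54% lower in root. So few tested loci cannot set a group apart.

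The response to 100% differed between the organs for 26 members. The test of root response minus leaf response, in the fit of all 18 libraries, called 24 of 81 tested members lower and 2 higher, 32.1% of the members against 15.9% of all genes (8.71% lower, 7.2% higher). Its median was -1.02 over the members and 0.04 over all genes. WRKY28 D1007_45894 had the largest difference of the 81, at -8.28 ± 1.41 (SE, adjusted p = 0.00164). Its change was -1.18 ± 0.26 in root and 7.06 ± 1.52 in leaf. The WRKY50 loci differed by -6.17 ± 0.98 (SE, adjusted p = 0.0011) for read-assembled WRKY50 and -4.58 ± 0.80 (SE, adjusted p = 0.00189) for D1007_53924. Their root levels overlapped between the groups, at 30.1, 28.4 and 36.7 CPM in 100% roots and 29.4, 36.7 and 38.5 CPM in control roots for D1007_53924. WRKY71 D1007_45895 differed by -5.41 ± 1.04 (SE, adjusted p = 0.0033). WRKY50 D1007_38093 differed by -7.18 ± 1.36 (SE, adjusted p = 0.00311), where the 3 counts of the control leaves make the size uncertain. SUSIBA2 D1007_51649 was 1 of the 2 in the other direction, at 0.79 ± 0.21 (SE, adjusted p = 0.0183). It had 129, 116 and 131 CPM in 100% leaves and 238, 206 and 213 CPM in control leaves, without overlap, while in root it had 80.7, 89.9 and 84.8 CPM at 100% and 70.5, 70.2 and 63.2 CPM in controls. The count of differences was 18 to 29 when any 1 library was left out.

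At 40% the difference was called for 2 members, the WRKY50 pair, both lower, against 1.9% of all genes (0.674% lower, 1.22% higher). The sizes were -4.52 ± 0.97 (SE, adjusted p = 0.0343) for read-assembled WRKY50 and -3.36 ± 0.78 (SE, adjusted p = 0.0438) for D1007_53924. Leaving out 1 library gave 0 to 6 calls, with 0 without any 1 of control leaves 1 and 3, the control roots, 40% leaves 1 and 2 or 40% roots 1 and 2. It was 6 without control leaf 2, 4 without 40% leaf 3 and 1 without 40% root 3.

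Of 54 members tested in both organs, 7 fell in root and rose in leaf at 100%, against 0.496% of the 18145 genes tested in both. Of the 14 root falls 9 were tested in leaf, and the 7 are 77.8% of those 9, 50% of the 14 and 38.9% of the 18 leaf rises. They were named by the test: WRKY19 D1007_25648, WRKY24 D1007_53842, WRKY41 D1007_55553, WRKY28 D1007_45894, WRKY50 D1007_38093 and, named after their values were seen, WRKY11 D1007_35542 and WRKY19 D1007_16061. For all 7 the difference between organs was called, which opposite calls in the same libraries make likely beforehand, so it adds no support. WRKY19 D1007_25648 shows the pattern, with 249, 261 and 183 CPM in 100% roots and 516, 509 and 561 CPM in control roots, and 22.2, 112 and 4.23 CPM in 100% leaves and 2.56, 8.6 and 1.59 CPM in control leaves. Even where leaf rose and root fell, every 100% root of this locus stayed above every 100% leaf. The count of 7 rested on single libraries: it was 0 without control leaf 3, 2 without any 1 of control leaves 1 and 2 and 100% leaf 2, 3 without any 1 of the control roots or without 100% root 3, and 4 without 100% root 1. It was also 0 with all 18 libraries in 1 fit, and 13 with DESeq2. Whether called or not, 29 of the 54 had a negative change in root and a positive one in leaf. The share of all genes with these signs was not counted, so the 29 cannot be set against it.

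**Figure D4:**
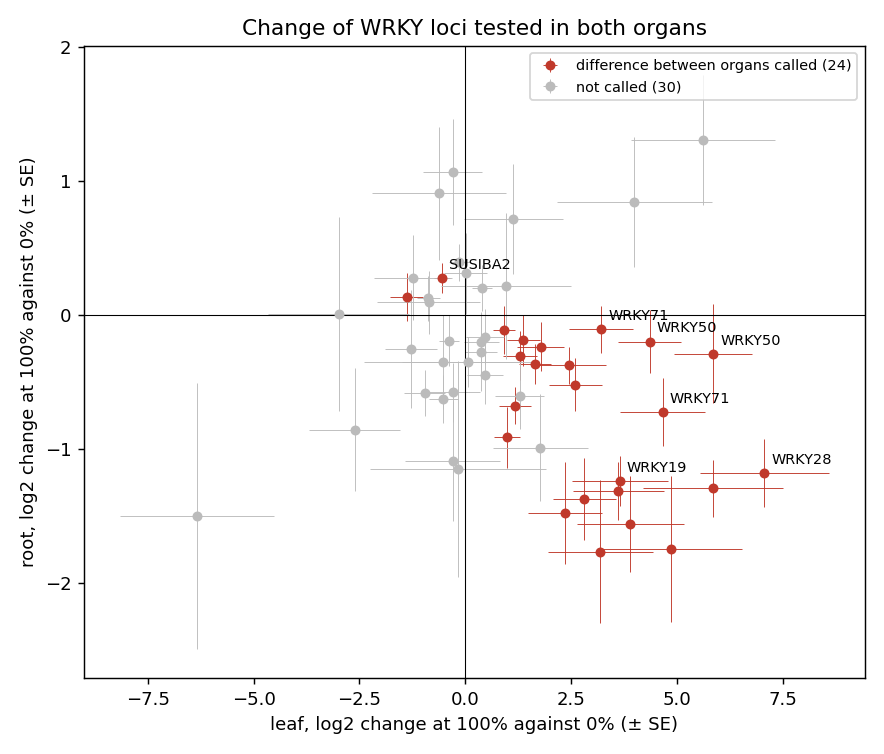
Log2 change at 100% against 0% organic nitrogen in leaf (x axis) and root (y axis) for the 54 WRKY loci tested in both organs, with bars of 1 SE; red marks the 24 loci whose difference between organs was called. Most red points lie right of 0 in leaf and below 0 in root.

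Of 20 members with under 1 CPM on average in control leaves and at least 5 CPM in control roots, 10 stayed under 1 CPM in every 100% leaf. The other 10 reached at least 1 CPM in some 100% leaf, up to 37.3 CPM for read-assembled WRKY50. This rule sets a mean of control leaves against the highest 100% leaf, and its share over all genes was not counted. The 10 are therefore not a count of rises at 100%. One of them, WRKY19 D1007_16061, averaged 12.9 CPM in 40% leaves and 9.31 CPM in 100% leaves. Among those that stayed low, WRKY72 D1007_41759, a regulator of basal immunity in Arabidopsis, reached 0.62 CPM in a 100% leaf and averaged 119 CPM in 100% roots. WRKY19 D1007_51518 had 0, 0.225 and 0 CPM in 100% leaves and 46.9, 64 and 55.6 CPM in 100% roots. Of the 12 loci on the root marker list, 9 had no count in any 100% leaf, and 2 of the other 3 were called higher there, with a median log2 change of 3.73 over the 3. These 3 did not mark root in controls. Casparian strip protein D1007_59456 averaged 2.66 CPM in control leaves and 0 CPM in control roots. Nitrate transporter D1007_49225 averaged 4.47 and 2.27 CPM, and Casparian strip protein D1007_25720 averaged 1.04 and 1.61 CPM. Their part in the WRKY rises was not tested.

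Genes that work with WRKY proteins were taken from lists by their annotation. Of 9 tested VQ motif loci, 1 rose and 1 fell in 100% leaves and 3 fell in 100% roots. That is 22.2% called in leaf, close to the 22.9% of all genes, and 33.3% in root against 10.2% of all genes. VQ22 D1007_19548 had 164, 104 and 74.8 CPM in 100% leaves and 18, 6.46 and 24.6 CPM in control leaves, a change of 3.07 ± 0.56 (SE, adjusted p = 0.00506). VQ17 D1007_37470 fell in both organs, with log2 changes of -3.80 ± 0.83 in leaf and -1.55 ± 0.31 in root (adjusted p = 0.0112 and 0.0173). VQ4 D1007_04722 fell in root, -0.75 ± 0.18 (SE, adjusted p = 0.0331). Of 38 tested MAP kinase cascade loci, 8 rose and 1 fell in leaf, or 4 rose and 3 fell when scaled by library size alone. In root 4 of 39 fell and none rose. The shares called, 23.7% in leaf and 10.3% in root, were near those of all genes, 22.9% and 10.2%. MPK7 D1007_34991 had 20.7, 12.3 and 12.4 CPM in 100% leaves and 4.16, 5.66 and 4.94 CPM in control leaves, a change of 1.87 ± 0.32 (SE, adjusted p = 0.0038). MKK9 D1007_54086, whose Arabidopsis namesake acts in ethylene signalling and senescence, had 11.4, 5.18 and 2.31 CPM in 100% leaves and no count in control leaves. In root MPK11 D1007_01776 changed by -1.29 ± 0.25 (SE, adjusted p = 0.0145) and MAPKKK18 D1007_02398 by -1.05 ± 0.22 (SE, adjusted p = 0.0198).

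Of the LysM receptors tested, 14.3% were called in leaf and 25% in root, against 22.9% and 10.2% of all genes. The chitin receptor kinase CERK1 D1007_55170 rose in leaf, 1.76 ± 0.53 (SE, adjusted p = 0.0394), as 1 of 7 tested LysM receptors, but not when scaled by library size alone. In root LYK5 D1007_43800 fell (-1.59 ± 0.32 (SE, adjusted p = 0.0171)) and LysM receptor-like kinase 3 D1007_51902 rose (1.39 ± 0.34 (SE, adjusted p = 0.0337)), of 8 tested. Of 5 salicylate and immune regulators tested in leaf 2 rose and none fell, which is 40% against 22.9% of all genes. Scaling by library size alone gave 2 higher and 1 lower. The median log2 change of the 5 was -0.06 in the main fit. EDS1L D1007_06096, named after its values were seen, had 32.9, 40.6 and 40.5 CPM in 100% leaves and 67.1, 69.6 and 64.9 CPM in control leaves. PAD4 D1007_34729, named likewise, averaged 61.6 CPM in 100% leaves and 76.3 CPM in control leaves. Isochorismate synthase D1007_20936, an enzyme of salicylate synthesis, had 13.4, 20.1 and 18.5 CPM in 100% leaves and 1.6, 5.98 and 3.46 CPM in control leaves, a change of 2.48 ± 0.45 (SE, adjusted p = 0.00492). The salicylate receptor NPR1 D1007_21612 changed by 1.86 ± 0.46 (SE, adjusted p = 0.0184). None of the 6 tested in root passed. Of senescence-associated loci, 2 of 12 rose and 1 fell in leaf, and 3 of 19 rose and 1 fell in root. That is 25% called in leaf, close to the 22.9% of all genes, and 21.1% in root against 10.2% of all genes. SAG20 D1007_43714 had 35.2, 12.7 and 12.9 CPM in 100% leaves and 0.639, 1.28 and 1.31 CPM in control leaves, a change of 4.49 ± 0.75 (SE, adjusted p = 0.00345), and chloroplast protein OSA15 D1007_09945 changed by 2.13 ± 0.24 (SE, adjusted p = 0.000616). Named after their values were seen, SAG39 D1007_05290 averaged 9967 CPM in control leaves and 2595 CPM in 100% leaves, and SAG12 D1007_56869 averaged 122.8 and 124.3 CPM. Control leaf 2 held 749 CPM of SAG39, far below the other control leaves, and 40% leaves averaged 316 CPM. In root SAG39 D1007_05290 changed by 3.23 ± 0.37 (SE, adjusted p = 0.00208) and SAG12 D1007_17462 by -2.70 ± 0.45 (SE, adjusted p = 0.00847).

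Clock genes changed at 100% in both organs. LHY D1007_00729, a morning gene, had 2170.3, 1766 and 1839 CPM in 100% leaves and 189, 326 and 153 CPM in control leaves. In root it had 454, 609.6 and 536 CPM at 100% and 87, 90.5 and 78 CPM in controls. Its log2 changes were 3.36 ± 0.35 (SE, adjusted p = 0.000476) in leaf and 2.60 ± 0.19 (SE, adjusted p = 0.000172) in root. Of the clock list, 2 rose and 2 fell of 8 tested in leaf, and 4 rose and 3 fell of 9 in root. That is 50% called in leaf and 77.8% in root, against 22.9% and 10.2% of all genes. PRR95 D1007_25582 fell in leaf, a log2 change of -2.20 ± 0.20 (SE, adjusted p = 0.000297). The response to 100% differed between the organs for 3 of 9 clock loci tested, 33.3% against 15.9% of all genes. The part of the hour of harvest in the WRKY values was not tested.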

How the data were processed

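The deposited counts per locus were used as the authors gave them, unnormalized. TRIzol extraction and the NEBNext Ultra kit are stated per the labels. Tools in the submitters' processing notes are DESeq2 1.20.0, featureCounts 1.5.0-p3, HISAT2 2.0.5, fastp and CASAVA 1.8, with the mouse builds GRCm38 and mm10, although the loci lie on barley scaffolds. No source used here says how strand or multiply mapped reads were handled, which matters for close WRKY copies. The deposited table also lists gene length in bases (other values, per the file headers), a multiple of 3 for 47 of the 95 members, so some may be coding lengths. It was used only for CPM per kb.

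Testing used edgeR 4.0.16 (R 4.3.3), its quasi-likelihood F test, TMM factors, filterByExpr (minimum count 10, minimum total 15) and Benjamini-Hochberg adjustment of 2-sided p over all genes at 0.05. The 9 libraries of an organ were fitted together (20032 genes in leaf, 21895 in root), and both organs together (24046 genes) for leaf against root and for differences of responses. Structural groups were assigned from the annotated names. The members, lists, tests and naming rule were chosen with earlier results of these data known. Whether replicates are separate plants or pots is not stated, so each p reflects the spread of these samples alone, which may be technical. No 2 libraries of a group were near sampling noise (chi-square per degree of freedom at least 19.01). Scripts were tested on simulated data.

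Named loci are the called members of smallest adjusted p (up to 8 for 100% against 0%, 6 for the other rate comparisons, 5 for each difference of responses), the 5 most abundant per length in each organ, 4 in each direction of leaf against root with at least 5 CPM, and 2 per companion list. Alternatives were RLE factors, library size alone, no filter, at least 5 CPM in 3 libraries, DESeq2 1.42.0, a replicate block, 1 fit over all 18 libraries, and each library left out in turn.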

Additional observations from a re-analysis of the deposited data

Results flagged for a closer look

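Results listed here are named members whose response to 100% or 40% organic nitrogen differed between root and leaf by edgeR's test of the difference (root minus leaf, log2). At 100% the differences were -8.28 for WRKY28 D1007_45894, -7.18 for WRKY50 D1007_38093, -7.17 for WRKY54 D1007_35545, -6.17 for read-assembled WRKY50, -5.41 for WRKY71 D1007_45895, -4.96 for WRKY24 D1007_53842, -4.92 for WRKY19 D1007_25648, -4.58 for WRKY50 D1007_53924, -4.21 for WRKY41 D1007_55553, -3.34 for WRKY71 D1007_57881, -3.15 for read-assembled WRKY57, -2.05 for WRKY51 D1007_52716, -1.88 for WRKY2 D1007_03382 and -1.59 for WRKY24 D1007_43202. SUSIBA2 D1007_51649 differed in the other direction, at 0.79. At 40% the differences were -4.52 for read-assembled WRKY50 and -3.36 for D1007_53924.

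WRKY54 D1007_35545 fell in 100% roots, a log2 change of -1.003 (adjusted p = 0.0322), with 25.4, 18.6 and 13.5 CPM in 100% roots and 41.5, 32 and 38.7 CPM in control roots. This root call was lost in 6 of 13 alternatives, at adjusted p up to 0.552, among them leaving out any 1 of the control roots. In leaf it had 1.24, 0 and 0 CPM at 100% and no count in controls, so the size of its difference rests on 100% leaf 1, without which its adjusted p was 1.00, and the call of the difference was lost in 11 of 18 alternatives. Of the 15 members at 100%, the other one whose call was lost in an alternative was WRKY24 D1007_43202, at adjusted p up to 0.0748. Both calls at 40% were lost without control leaf 1 or 3, among others, at adjusted p up to 0.123. WRKY2 D1007_03382 passed in root alone (-0.68 ± 0.14 (SE, adjusted p = 0.0178)), and its leaf change was 1.16 ± 0.38 (SE, adjusted p = 0.0531), with 153, 67.7 and 50.5 CPM in 100% leaves and 52.9, 51.1 and 40.5 CPM in control leaves.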

How the results depend on the processing

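Every setting gave a count of called members within 1.5 times the main one for leaf against root (50 to 63) and for the difference of responses at 100% (18 to 29). Leaving out 1 library gave 3 to 18 calls for leaf 100% against 0%, 0 to 4 for leaf 40% against 0%, 0 to 11 for leaf 100% against 40%, 5 to 14 for root 100% against 0%, 0 to 2 for root 40% against 0%, 0 to 3 for root 100% against 40% and 0 to 6 for the difference at 40%. DESeq2 called 8 members in leaf 40% against 0%, 16 in leaf 100% against 40%, 23 in root 100% against 0%, 10 in root 40% against 0%, 8 in root 100% against 40% and 12 for the difference at 40%. All genes called by DESeq2 were 1585, 5697, 3834, 1155, 2369 and 1827, in the same order. With all 18 libraries in 1 fit the members called were 8 and 19 in leaf (40% against 0%, 100% against 40%). In root they were 1, 0 and 0 (100% against 0%, 40% against 0%, 100% against 40%). A filter of 5 CPM gave 4 for root 100% against 40%. With a replicate block the 3 counts for root 40% against 0%, root 100% against 40% and the difference at 40% were 0, and the calls of WRKY28 D1007_45894 in root 100% against 0% (adjusted p = 0.0512) and of WRKY54 D1007_35545 for the difference at 100% (adjusted p = 0.055) were lost. Deviations of same-numbered libraries from their group means had correlations of -0.16 to 0.16, with 4 of 27 pairs over 0.1. Libraries of different numbers were not compared, so these values cannot tell whether the numbers pair the samples. The cause of these shifts was not tested. Of 964 values of named loci under alternatives, 829 kept their direction and side of the threshold, 135 lost the call and 0 reversed. Of 70 named calls, 38 were kept under every alternative. These were 22 of 23 for leaf against root and 13 of 15 for the difference at 100%. At 100% against 0% they were 2 of 12 in leaf and 1 of 10 in root. No named call of the other comparisons was kept under every alternative. Members under about 1 CPM, near the floor of 3 counts per library (0.158 to 0.231 CPM), could show only large changes.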
